A study of Mus musculus with 6 samples.

Results

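Transcript levels of 9 heat shock chaperone genes and of the heat shock factor gene Hsf1 were compared by mouse RNA-seq between TNFR2-deficient and TNFR2 positive libraries. The 10 genes were taken by symbol from the 32377 gene identifiers of the count table, all 10 were found, and all 10 were among the 17022 genes that passed the filter on low counts. By compartment, Hspa8, Hspa1a, Hspa1b, Hsph1, Dnajb1, Hsp90aa1 and Hsp90ab1 encode cytosolic proteins, Hspd1 a mitochondrial one and Hspa5 one of the endoplasmic reticulum (ER). The study set 3 libraries of TNFR2-deficient regulatory T (Treg) cells beside 3 of TNFR2+ Treg cells, and its title names TRIP13, HAT1 and CD4+ Foxp3+ Treg cells. The strain, age, tissue, sort and treatment of the cells, the allele or other means behind the deficiency, and whether separate animals were used are not stated in the labels. P-values therefore reflect how much these libraries vary, and that variation may be technical.

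Heat shock proteins are chaperones that bind unfolded or partly folded proteins and keep them from aggregating. HSP70 proteins bind short hydrophobic stretches in a cycle driven by ATP, J-proteins (HSP40) deliver clients to them and start ATP hydrolysis, and nucleotide exchange factors such as the HSP110 proteins release the client. HSP90 proteins take over kinases, steroid receptors and other clients that are nearly folded, HSP60 folds proteins inside mitochondria, and the HSP70 of the ER, BiP, serves secreted and membrane proteins. HSF1 is held back by chaperones in unstressed cells. When unfolded proteins accumulate it forms trimers and binds heat shock elements, repeats of GAA and its reverse complement TTC, in front of the genes of inducible chaperones. BiP answers chiefly to the unfolded protein response of the ER.

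The libraries held 22465991 to 24038118 counts in the TNFR2-deficient group and 19296082 to 23587552 in the TNFR2 positive group. Tnfrsf1b, the gene of TNFR2, had 8.30, 7.99 and 7.32 CPM (counts scaled to library size, with the trimmed mean of M-values, TMM) in TNFR2-deficient libraries and 84.6, 84.2 and 80.2 CPM in TNFR2 positive libraries. Marker genes are counted as higher or lower where they passed an adjusted p of 0.05 in the edgeR test described below. Of all genes tested 69.3% passed it, 35.1% higher and 34.2% lower, so many markers of any list would be called. Of 12 Treg marker genes 0 were higher and 11 lower in TNFR2-deficient libraries, with summed levels of 224.6 to 253 CPM against 796 to 827 CPM. Capg, the one not lower, averaged 192 CPM in TNFR2-deficient libraries and 171 CPM in TNFR2 positive libraries, and the other 11 summed to 40.7 to 46.6 CPM against 616 to 671 CPM. Foxp3, the defining Treg gene, was near 0 with a mean of 1.44 CPM against 75.5 CPM. The defining marker of the labelled cell type was thus nearly absent from the TNFR2-deficient libraries. All 12 markers of double-positive thymocytes were higher, with sums of 3879 to 4005 CPM in TNFR2-deficient libraries and 487 to 500.4 CPM in TNFR2 positive libraries. B cell markers summed to 6714 to 7022 CPM against 5227 to 5423 CPM, with 5 of 8 higher and 1 lower. Erythroid markers summed to 18068 to 20617 CPM against 4237 to 7011 CPM, with all 8 higher. Within TNFR2 positive libraries as well, the B cell and erythroid sums were above the Treg sum of 796 to 827 CPM. The B cell marker Cd79a averaged 1178 CPM there, beside 75.5 CPM for Foxp3. Myeloid markers summed to 991 to 1077 CPM against 490.2 to 546 CPM, with 7 of 10 higher. Pan T cell markers summed to 1671 to 1768 CPM against 946 to 1002 CPM, with 6 of 8 higher and 1 lower. Endothelial and stromal markers summed to 248 to 259 CPM against 224 to 234 CPM, with 1 of 8 higher and 2 lower. Nearly all of these sums came from Pecam1, which averaged 244 CPM in TNFR2-deficient libraries and 221 CPM in TNFR2 positive libraries. Platelet markers had sums of 37.0 to 39.9 CPM against 36.7 to 39.2 CPM, with 4 of 5 higher and 1 lower; Itgb3 averaged 23.7 CPM in TNFR2-deficient libraries and 33.3 CPM in TNFR2 positive libraries, and Itga2b 5.91 against 2.92 CPM. No gene of these lists was without counts in either group. The part of this difference in cell markers in the results on chaperones was not tested, and in bulk samples fewer cells of a type and less RNA per cell cannot be told apart. TNFR2 positive library 1 stood apart within its group, with a chi-square per gene of 13.9 and 18.5 against libraries 2 and 3 of that group, which gave 2.45 between them; pairs of TNFR2-deficient libraries gave 2.43 to 4.44.

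Most chaperone genes were lower in TNFR2-deficient libraries, while Dnajb1 and Hsf1 were higher. Of the 10 genes, 7 were lower, 2 were higher and 1, Hspa1b, did not pass an adjusted p of 0.05 (edgeR's quasi-likelihood test, Benjamini-Hochberg adjustment over all genes tested). Across all genes tested 69.3% passed, 34.2% lower and 35.1% higher, so that passing the test was common in this comparison. The groups did not overlap for 9 of the 10 genes, against 74.5% of all genes. The log2 fold changes (log2FC, TNFR2-deficient over TNFR2 positive) ran from -1.13 to 0.46 with a median of -0.43, beside a median of 0.04 over all genes. The 7 cytosolic genes had a median of -0.42, with 5 lower and 1 higher, the mitochondrial Hspd1 had a log2FC of -0.44 and the ER gene Hspa5 one of -0.51, both close to the cytosolic median. With 1 gene each in mitochondria and the ER, a difference between compartments was not tested. Without TNFR2 positive library 1, the library that stood apart, all of the 10 but Hspa1a and Hspa1b passed in the same direction, beside 67.1% of all genes. The plot of levels by library shows this pattern gene by gene.

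**Figure D1:**
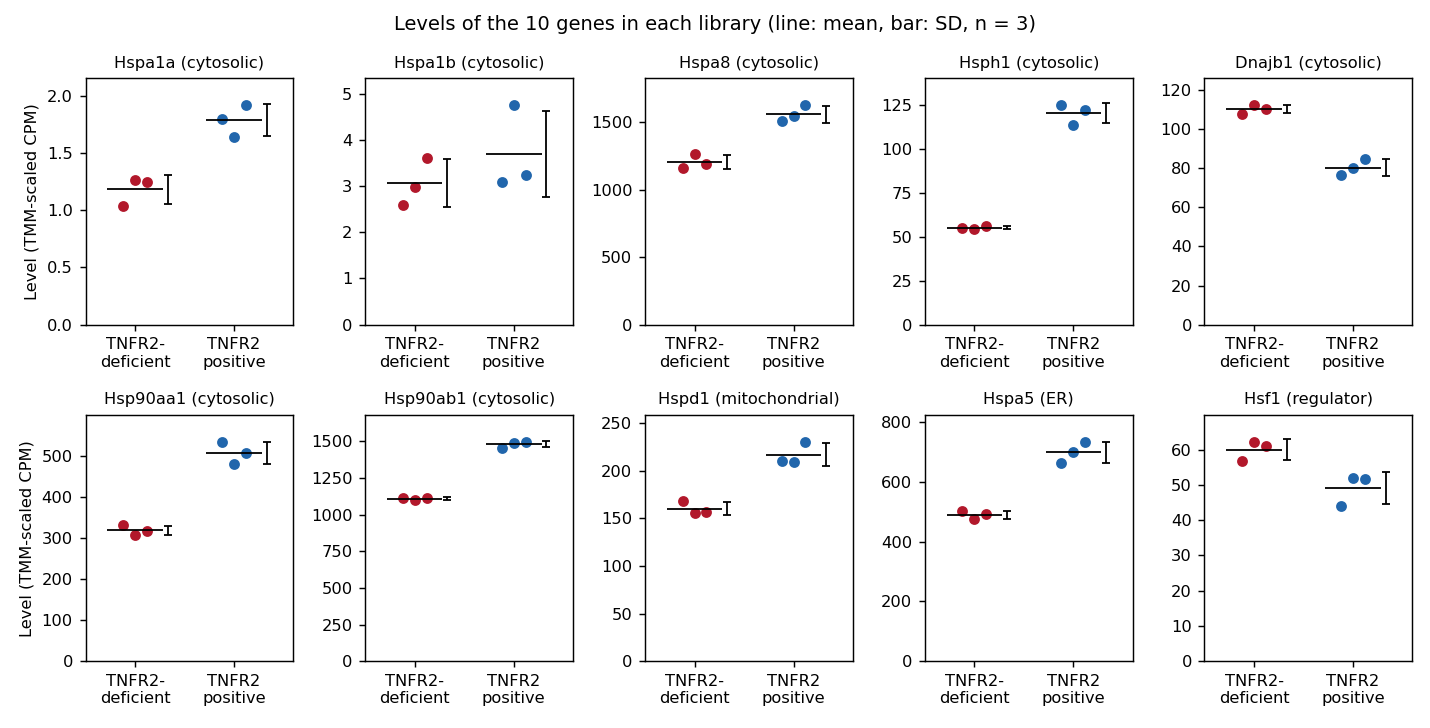
Levels (TMM-scaled CPM, linear axes from 0) of the 10 genes in each of 3 TNFR2-deficient (red) and 3 TNFR2 positive (blue) libraries, with the mean as a line and the SD as a bar. Points of the groups are separate in every panel but that of Hspa1b, and the TNFR2-deficient points lie above the TNFR2 positive ones for Dnajb1 and Hsf1.

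Per kilobase of exon the order of levels was nearly the same in both groups. Hsp90ab1 was the most abundant of the 10, with 369.6 ± 2.69 CPM per kb in TNFR2-deficient libraries and 493 ± 7.02 in TNFR2 positive libraries (SD, n = 3 each, as for the other means here). Hspa8 followed with 280.5 ± 12.3 against 363 ± 14.6 CPM per kb, then Hspa5 with 116 ± 3.21 against 165 ± 8.56. Hsp90aa1 had 81.0 ± 3.05 against 129 ± 6.90 CPM per kb, Hspd1 had 60.7 ± 2.71 against 82.0 ± 4.50, and Dnajb1 had 34.4 ± 0.699 against 25.1 ± 1.31. Hsf1 and Hsph1 changed places: Hsf1 had 8.44 ± 0.413 and Hsph1 7.59 ± 0.107 CPM per kb in TNFR2-deficient libraries, while Hsph1 had 16.6 ± 0.805 and Hsf1 6.92 ± 0.626 in TNFR2 positive libraries. Hspa1b, with 1.09 ± 0.184 against 1.32 ± 0.331 CPM per kb, and Hspa1a, with 0.399 ± 0.0424 against 0.602 ± 0.0478, were the lowest. Within each group the library values of neighbours in this order did not overlap.

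Hspa8 encodes HSC70, the constitutive HSP70 of the cytosol. It had 1164, 1266 and 1189 CPM in TNFR2-deficient libraries and 1507, 1547 and 1630 CPM in TNFR2 positive libraries. The groups were clearly apart, and Hspa8 was 1.29-fold lower in TNFR2-deficient libraries (log2FC = -0.37, SE 0.0602, adjusted p = 0.00017). It ranked 60 of all 17022 genes by level. Of the 100-base stretches of its transcript 32.1% also occur in other annotated transcripts, so its count may share reads with those genes.

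Hspa1a and Hspa1b encode the stress-inducible HSP70 and lie beside each other on chromosome 17. Hspa1a had 1.04, 1.26 and 1.25 CPM in TNFR2-deficient libraries, from 24, 28 and 30 counts. In TNFR2 positive libraries it had 1.80, 1.64 and 1.92 CPM, from 42, 32 and 41 counts. Every TNFR2-deficient value lay below every TNFR2 positive one, and the difference, 1.51-fold lower, passed narrowly (log2FC = -0.59, SE 0.228, adjusted p = 0.0355). The call was lost when any 1 of the 6 libraries was left out, with log2FC of -0.65 to -0.51 and adjusted p of 0.0511 to 0.109. Hspa1b had 2.59, 2.98 and 3.62 CPM in TNFR2-deficient libraries and 3.09, 4.76 and 3.23 CPM in TNFR2 positive libraries. Here TNFR2-deficient library 3 was above TNFR2 positive libraries 1 and 3, the groups overlapped, and the difference did not pass (log2FC = -0.26, SE 0.206, adjusted p = 0.283). Without TNFR2 positive library 2 the log2FC of Hspa1b was -0.04.

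The sources used here do not say how reads with several positions were counted, and the split of reads between the 2 genes is uncertain. Of the 100-base stretches of the Hspa1a transcript 47.1% are also found in Hspa1b, and 49.9% of those of Hspa1b in Hspa1a. In all, 56.5% of the Hspa1a stretches occur in transcripts of other genes, so reads may also be shared outside the pair. Summed over both genes, the TNFR2-deficient libraries had 3.63, 4.24 and 4.86 CPM and the TNFR2 positive libraries 4.89, 6.39 and 5.15 CPM. The sums did not overlap by a narrow margin, and the summed gene did not pass (log2FC = -0.36, SE 0.159, adjusted p = 0.0615). The sums came from 84 to 117 counts in TNFR2-deficient libraries and 110 to 125 in TNFR2 positive ones.

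The promoters of the pair are shown because both carry the same heat shock element letters and are nearly identical. The runs are the 250 bases before the start of each gene from RefSeq's GRCm38.p6 (minus strand, 5′ to 3′; Hspa1a at chr17:34972157-34972406, Hspa1b at chr17:34959239-34959488), with the match to GAANNTTC, 104 to 97 bases before the start, in capitals.
Hspa1a: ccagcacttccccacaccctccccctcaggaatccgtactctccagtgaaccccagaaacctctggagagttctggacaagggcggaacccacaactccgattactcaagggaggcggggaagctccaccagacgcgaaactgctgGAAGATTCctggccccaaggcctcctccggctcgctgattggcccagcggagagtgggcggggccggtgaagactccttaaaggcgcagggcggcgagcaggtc
Hspa1b: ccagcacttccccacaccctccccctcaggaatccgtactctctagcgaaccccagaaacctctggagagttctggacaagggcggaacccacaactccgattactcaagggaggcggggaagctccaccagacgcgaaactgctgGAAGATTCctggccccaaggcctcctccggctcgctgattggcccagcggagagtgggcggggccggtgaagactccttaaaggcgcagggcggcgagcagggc
The runs are identical at 247 of 250 bases (98.8%) and differ by C44T, T47C and T249G, counted from 1 at the 5′ end of the run with the base of Hspa1a first. None of these positions lies in the capitals.

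Hsph1 encodes HSP110, a nucleotide exchange factor of HSP70 that also keeps unfolded proteins soluble. Its levels were 55.1, 54.4 and 56.0 CPM in TNFR2-deficient libraries, against 125.1, 114 and 122 CPM in TNFR2 positive libraries. The TNFR2-deficient libraries lay close together and far under the lowest TNFR2 positive one. At 2.18-fold lower this was the largest fold change among the 10 genes (log2FC = -1.13, SE 0.0605, adjusted p = 2.76e-08), and 11.96% of all genes tested had a log2FC at or below it. In a length-corrected fit, where the dependence of each library's counts on gene length was taken out, the log2FC was -0.91. That fit called 34.3% of all genes higher and 32.6% lower, 66.9% in all, and placed the 10 genes as before, 2 higher and 7 lower.

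Near its start Hsph1 carries a longer heat shock element, shown here because such a match is rare. The 30 bases are from RefSeq's GRCm38.p6, chr5:149636287-149636316, minus strand, 5′ to 3′, and the capitals mark the match to TTCNNGAANNTTC at bases 37 to 49 counted from 1 of the 2 starts in the table.
Hsph1: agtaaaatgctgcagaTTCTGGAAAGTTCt
Relative to the start used here, the match lies inside the transcribed part of the gene. Its place relative to the other start was not examined.

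Dnajb1 encodes HSP40, the main stress-inducible J-protein of the cytosol and the usual partner of Hspa1a and Hspa8 products. It had 108, 112 and 110.4 CPM in TNFR2-deficient libraries and 76.4, 79.9 and 84.7 CPM in TNFR2 positive libraries. All TNFR2-deficient values were above all TNFR2 positive ones, and Dnajb1 was 1.37-fold higher (log2FC = 0.46, SE 0.0606, adjusted p = 3.68e-05). It was the one cytosolic chaperone of the set that went up, and it kept that direction and passed the test under all 16 alternatives tried, with log2FC of 0.31 to 0.51.

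Hsp90aa1 and Hsp90ab1 encode the inducible and the constitutive form of cytosolic HSP90. Hsp90aa1 had 331, 307 and 318 CPM in TNFR2-deficient libraries and 535, 480.4 and 507 CPM in TNFR2 positive libraries. It was 1.59-fold lower without overlap (log2FC = -0.67, SE 0.0620, adjusted p = 2.17e-06). Of the 100-base stretches of its transcript 47.5% also occur elsewhere, mostly in the pseudogene Gm12346, so its count may share reads. Hsp90ab1, rank 64 by level, had 1116, 1099.7 and 1110.3 CPM in TNFR2-deficient libraries and 1456, 1486 and 1497 CPM in TNFR2 positive libraries. Values within each group lay close together, and Hsp90ab1 was 1.33-fold lower (log2FC = -0.42, SE 0.0534, adjusted p = 2.82e-05).

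Hspd1 encodes HSP60, the chaperonin of the mitochondrial matrix. It had 169, 156 and 156 CPM in TNFR2-deficient libraries and 211, 209 and 230.5 CPM in TNFR2 positive libraries. The groups did not overlap, and Hspd1 was 1.35-fold lower (log2FC = -0.44, SE 0.0635, adjusted p = 7.66e-05). Of the 100-base stretches of its transcript 26.9% also occur in other genes, mostly in Hspd1-ps3, so its count may share reads. Its cochaperonin HSP10 is encoded by Hspe1, for which 99.7, 101.4 and 96.9 CPM in TNFR2-deficient libraries stood beside 80.0, 89.4 and 96.1 CPM in TNFR2 positive libraries, with a narrow gap between the groups and no call (log2FC = 0.17, SE 0.0712, adjusted p = 0.0537). In the length-corrected fit the log2FC of Hspe1 was -0.02 (adjusted p = 0.72). The mitochondrial HSP70 gene Hspa9 had 153, 156 and 158 CPM in TNFR2-deficient libraries and 209, 199.6 and 213 CPM in TNFR2 positive libraries, without overlap and lower like Hspd1 (log2FC = -0.41, adjusted p = 4.72e-05).

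Hspd1 and Hspe1 lie head to head with 215 bases between their starts, and 285 bases are common to both promoter windows, read on opposite strands. Most of the shared stretch is shown as the 250 bases before the start of Hspd1, from RefSeq's GRCm38.p6, chr1:55087933-55088182, minus strand, 5′ to 3′. The capitals mark 2 overlapping matches, one to TTCNNGAANNTTC and one to GAANNTTCNNGAA, together 144 to 127 bases before the start.
Hspd1: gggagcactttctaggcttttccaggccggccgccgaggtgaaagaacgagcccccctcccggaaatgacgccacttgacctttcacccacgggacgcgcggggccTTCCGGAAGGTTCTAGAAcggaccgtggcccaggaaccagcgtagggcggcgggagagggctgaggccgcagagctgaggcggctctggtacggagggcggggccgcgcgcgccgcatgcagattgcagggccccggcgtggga
The same letters, on the other strand, are 89 to 72 bases before the start of Hspe1. Counts of Hspd1 were 169%, 154% and 161% of those of Hspe1 in TNFR2-deficient libraries and 263%, 234% and 239.8% in TNFR2 positive libraries. The ratio was lower in every TNFR2-deficient library, by 0.61 on the log2 scale. This ratio was chosen after its values were seen, and an exact two-sided permutation test of 3 against 3 libraries gave p = 0.1, the smallest it allows.

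Hspa5 encodes BiP, the HSP70 of the ER. It had 502, 475 and 491 CPM in TNFR2-deficient libraries and 661, 698 and 734 CPM in TNFR2 positive libraries. The groups were well apart, and Hspa5 was 1.43-fold lower (log2FC = -0.51, SE 0.0602, adjusted p = 1.49e-05). Hsp90b1, the gene of the ER form of HSP90 (GRP94), had 307, 301 and 288 CPM in TNFR2-deficient libraries and 487, 453 and 488 CPM in TNFR2 positive libraries (log2FC = -0.67, adjusted p = 1.54e-06). Both fell, and counts of Hspa5 were 164%, 158% and 170.4% of those of Hsp90b1 in TNFR2-deficient libraries and 136%, 154% and 150.3% in TNFR2 positive libraries, another ratio chosen after its values were seen (exact permutation p = 0.1, the smallest possible).

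The promoter of Hspa5 is shown for its ER stress element, the letters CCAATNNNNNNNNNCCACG that factors of the unfolded protein response bind. The run is the 250 bases before the start from RefSeq's GRCm38.p6, chr2:34771840-34772089, plus strand, 5′ to 3′, with the match, 65 to 47 bases before the start, in capitals.
Hspa5: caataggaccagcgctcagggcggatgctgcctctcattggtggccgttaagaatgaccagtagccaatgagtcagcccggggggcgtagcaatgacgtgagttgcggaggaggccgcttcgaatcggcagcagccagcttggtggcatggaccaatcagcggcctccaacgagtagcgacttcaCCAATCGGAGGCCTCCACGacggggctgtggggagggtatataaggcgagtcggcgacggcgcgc
A single full match was found in this window.

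Hsf1, the gene of the regulator itself, was higher in TNFR2-deficient libraries, with 56.7, 62.3 and 60.9 CPM against 44.0, 51.9 and 51.5 CPM in TNFR2 positive libraries. The groups were apart, with TNFR2 positive library 1 the lowest of the 6, and Hsf1 was 1.22-fold higher (log2FC = 0.29, SE 0.0755, adjusted p = 0.00487). It passed under all 16 alternatives, with log2FC of 0.21 to 0.49 and a largest adjusted p of 0.0356; the highest log2FC came from the length-corrected fit. Counts of mRNA do not measure the active trimer of HSF1. Hsf2, the gene of a second heat shock factor, went the other way, with 15.1, 14.9 and 14.2 CPM in TNFR2-deficient libraries and 23.9, 20.0 and 22.1 CPM in TNFR2 positive libraries (log2FC = -0.58, adjusted p = 8.71e-05). In the length-corrected fit its log2FC was -0.23 (adjusted p = 0.0175).

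**Figure D2:**
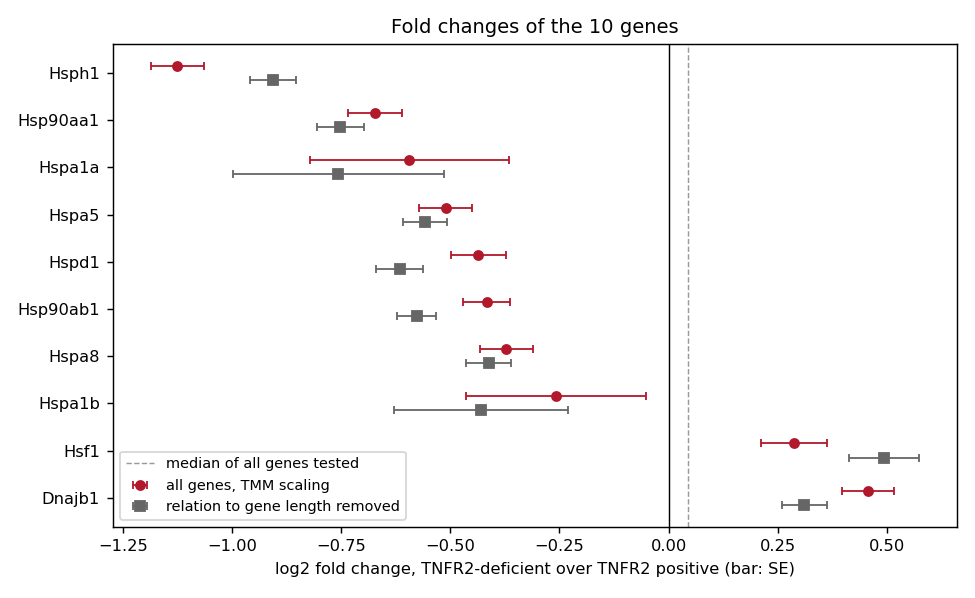
Log2 fold changes (TNFR2-deficient over TNFR2 positive, bar: SE) of the 10 genes from all libraries with TMM scaling (red circles) and from the length-corrected fit (grey squares); the dashed line is the median of all genes tested, 0.04. Hsph1 lies farthest to the left at -1.13, and Dnajb1 and Hsf1 are the ones right of 0 in both fits.

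Ratios within a library do not depend on its total or scaling, and 6 were planned. They keep any dependence of a library's counts on gene length, which was not taken out here. Counts of Hsp90aa1 were 29.6%, 27.9% and 28.6% of those of Hsp90ab1 in TNFR2-deficient libraries and 36.7%, 32.3% and 33.9% in TNFR2 positive libraries. The inducible form thus took a smaller part beside the constitutive one in each TNFR2-deficient library (log2 difference -0.26). The inducible Hspa1a and Hspa1b together came to 0.312%, 0.335% and 0.409% of Hspa8 in TNFR2-deficient libraries and to 0.324%, 0.414% and 0.316% in TNFR2 positive libraries. These values overlapped, and the log2 difference was 0.0046. Hsph1 came to 4.73%, 4.30% and 4.71% of Hspa8 in TNFR2-deficient libraries and to 8.30%, 7.36% and 7.49% in TNFR2 positive libraries (log2 difference -0.75). Dnajb1 moved the opposite way to Hsph1, with 9.28%, 8.89% and 9.28% of Hspa8 against 5.07%, 5.17% and 5.20% in TNFR2 positive libraries (log2 difference 0.83).

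Hspd1 came to 14.5%, 12.3% and 13.2% of Hspa8 in TNFR2-deficient libraries and to 14.0%, 13.5% and 14.1% in TNFR2 positive libraries, which overlap (log2 difference -0.06, or -0.13 to -0.01 with 1 library left out). Without TNFR2-deficient library 1 it was -0.13 and without TNFR2-deficient library 2 it was -0.01, with exact permutation p of 0.1 and 0.9. Hspa5 came to 43.2%, 37.6% and 41.3% against 43.9%, 45.1% and 45.0% in TNFR2 positive libraries, without overlap but with little room between the groups (log2 difference -0.14, or -0.08 without TNFR2-deficient library 2). The exact two-sided permutation test gave p = 0.1, the smallest possible with 3 against 3 libraries, for the 4 ratios without overlap (0.15 adjusted over the 6), p = 0.5 for Hspd1 and p = 1 for Hspa1a with Hspa1b. This design cannot reach 0.05 for a single ratio.

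**Figure D3:**
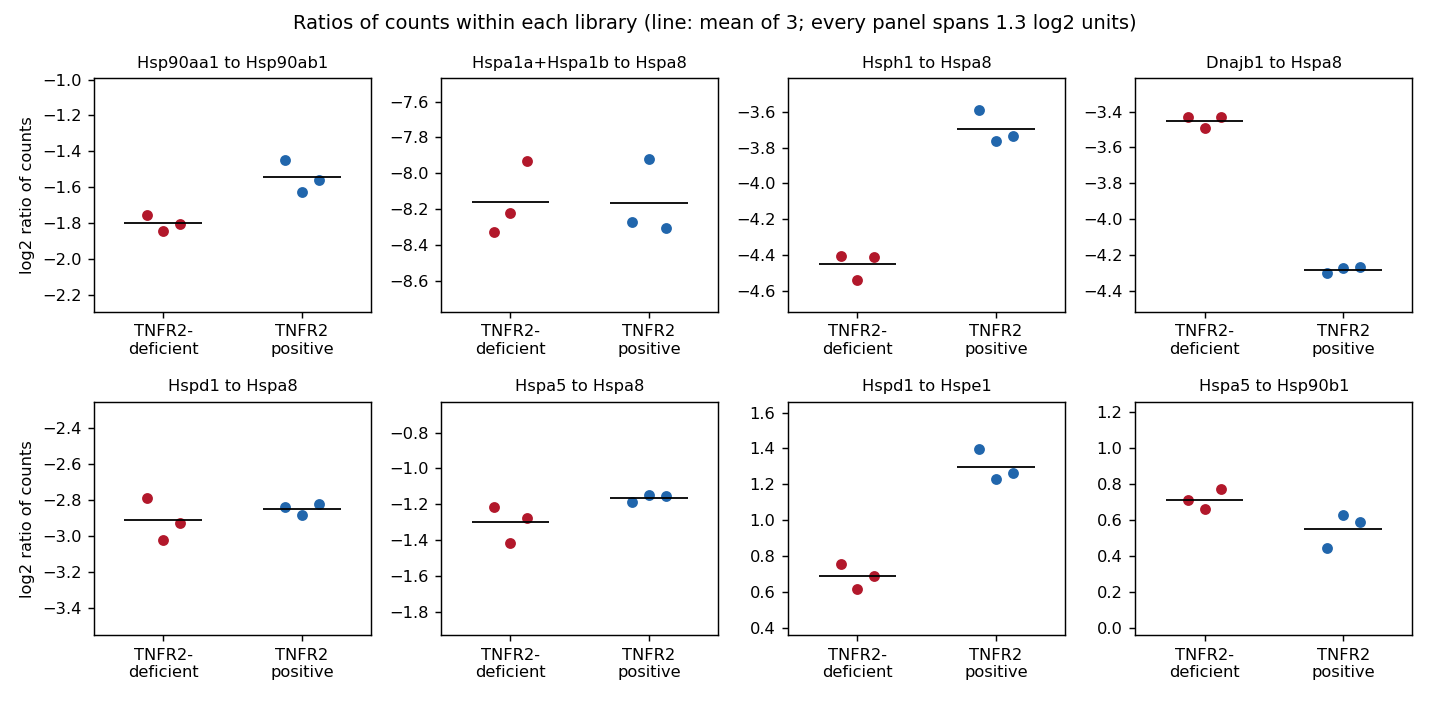
Log2 ratios of counts within each library (3 TNFR2-deficient in red, 3 TNFR2 positive in blue, line: mean), with the same span on every axis; the last pair of panels was chosen after the values were seen. Groups are separate for all ratios but Hspa1a with Hspa1b to Hspa8 and Hspd1 to Hspa8.

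Together the 10 genes took 0.349%, 0.349% and 0.350% of all counts in TNFR2-deficient libraries and 0.457%, 0.473% and 0.490% in TNFR2 positive libraries. All TNFR2-deficient libraries were lower, the mean difference was -0.124 percentage points, and the exact permutation test gave the smallest p it allows, 0.1. With mitochondrially encoded and globin genes left out of the total, the mean shares were 0.380% ± 0.000607 in TNFR2-deficient libraries and 0.502% ± 0.0198 in TNFR2 positive libraries (SD, n = 3 each). Of the counts of the 10 genes, Hsf1 included, Hspa8, Hsp90ab1, Hspa5 and Hsp90aa1 made up 88.9% ± 0.0884 in TNFR2-deficient libraries. In TNFR2 positive libraries they made up 90.0% ± 0.146.

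Levels of 10938 genes with a mean of at least 5 CPM were compared over the 6 libraries with the summed Hspa1a and Hspa1b. For naming, genes without a symbol, Gm and Rik genes, and T cell receptor or immunoglobulin segments were passed over. Of the rest, Ehbp1l1 (Pearson r = 0.984 of log2 CPM), Sh2d2a (r = 0.973) and Chpf (r = 0.964) were most like this sum. Only 10 of all 10938 genes reached r = 0.95 with this pair. By the same rule Hsf1 was most like Cd40 (r = 0.9997), H2-Q6 (r = 0.998) and E2f1 (r = 0.998). In all, 766 of 10937 genes reached 0.95 with Hsf1. These r values are descriptions over 6 libraries in 2 groups that differ for most genes tested.

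Other genes of folding and stress responses moved in both directions. Over 12 further lists, chosen with earlier results of these data known, 136 of 145 genes were tested, 49 were higher and 51 lower, so that 73.5% passed beside 69.3% of all genes. Counts of each list below stand beside 35.1% higher and 34.2% lower of all genes. Their median log2FC was 0.00 after rounding. The last list holds early genes that are no part of the folding machinery. Without it 121 genes were tested, 47 were higher and 42 lower, with a median of 0.01. Examples below are the 2 genes per list with the lowest adjusted p that averaged 5 CPM or more, given as mean CPM ± SD (n = 3 per group).

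Genes of the HSP70 system were split. Of 7 other HSP70 and HSP110 genes tested 3 were lower and 0 higher (median log2FC -0.13). Hspa4, a further HSP110 relative, had 210.0 ± 5.10 CPM in TNFR2-deficient libraries and 259 ± 6.01 in TNFR2 positive libraries (adjusted p = 0.000469). Hspa13, an HSP70 relative found in microsomes, had 16.7 ± 2.67 against 24.5 ± 1.64 CPM (adjusted p = 0.000674). Of 14 further J-protein genes 6 were higher and 5 lower (median 0.03), or 9 higher and 3 lower in the length-corrected fit. The genes named by rule in this list were both lower: Dnajc5, the gene of a J-protein of secretory vesicles, had 155 ± 5.22 against 215 ± 8.49 CPM (adjusted p = 2.26e-05), and Dnajc13, an endosomal one, had 56.1 ± 5.10 against 124 ± 22.5 CPM (adjusted p = 3.77e-06; log2FC -1.15, or -0.70 in the length-corrected fit).

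Of 10 exchange factors and partners of HSP70, 4 were higher and 2 lower (median 0.19). Stub1, the gene of the ubiquitin ligase CHIP that marks HSP70 clients for breakdown, had 21.3 ± 0.0870 CPM in TNFR2-deficient libraries and 13.5 ± 0.601 in TNFR2 positive libraries (log2FC = 0.66, adjusted p = 1.39e-05). Bag6, which guards hydrophobic proteins in the cytosol, had 208 ± 2.08 against 155 ± 2.16 CPM (adjusted p = 2.91e-05). Bag3, an exchange factor that HSF1 is known to induce, had 3.76, 2.17 and 3.24 CPM in TNFR2-deficient libraries and 3.99, 3.27 and 3.51 CPM in TNFR2 positive libraries. Its groups overlapped and it did not pass (log2FC = -0.23, adjusted p = 0.328).

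Of 14 cochaperone genes of HSP90, 9 were higher and 2 lower (median 0.27), beside 35.1% higher and 34.2% lower of all genes. In the length-corrected fit 8 were higher and 1 lower (median 0.15). Both cytosolic HSP90 genes were lower. Fkbp5, an immunophilin that glucocorticoids are known to induce, had 88.2 ± 1.42 CPM in TNFR2-deficient libraries and 59.8 ± 2.31 in TNFR2 positive libraries (log2FC = 0.56, adjusted p = 5.58e-06; 0.90 in the length-corrected fit). Unc45a, a cochaperone with a role in myosin folding, had 70.3 ± 1.75 against 53.2 ± 3.98 CPM (adjusted p = 0.000207). Small heat shock genes were scarce: 6 of 8, among them Hspb1 with 8 counts in all TNFR2-deficient libraries and 6 in all TNFR2 positive ones, were too low to test. Of the other two, Hspb11, which encodes a protein of cilia transport (IFT25), had 14.6 ± 0.738 against 7.39 ± 1.54 CPM (adjusted p = 5.02e-05), and Hspb6 was also higher.

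TRiC and prefoldin work together on new proteins of the cytosol. Of 8 subunit genes of the chaperonin TRiC 4 were lower, 0 higher and 4 not past the threshold (median -0.12), and in the length-corrected fit 5 were lower and 1 higher, with Cct6a at 146 ± 4.39 CPM in TNFR2-deficient libraries against 175 ± 2.59 (adjusted p = 0.0012) and Tcp1 at 177 ± 3.62 against 206 ± 3.30 CPM (adjusted p = 0.00418). All 6 subunit genes of prefoldin, which hands actin and tubulin to TRiC, were higher (median 0.52), or 5 of 6 in the length-corrected fit (median 0.33). Pfdn2 had 45.3 ± 0.952 against 30.7 ± 2.83 CPM (adjusted p = 3.51e-05) and Pfdn5 had 221 ± 9.11 against 150.0 ± 16.5 CPM (adjusted p = 6.16e-05).

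Among 16 other mitochondrial chaperone and protease genes 5 were higher and 6 lower (median -0.02), or 4 higher and 3 lower in the length-corrected fit. Afg3l2, a subunit of an inner membrane protease, had 40.8 ± 1.96 CPM in TNFR2-deficient libraries and 64.0 ± 4.45 in TNFR2 positive libraries (log2FC = -0.65, adjusted p = 7.36e-06; -0.29 in the length-corrected fit). The other gene named by rule was Hspa9, given above. Among 18 other ER folding genes 5 were higher and 7 lower (median -0.02), or 3 higher and 10 lower in the length-corrected fit. Dnajb9, a J-protein of BiP, had 58.6, 47.2 and 57.6 CPM in TNFR2-deficient libraries and 140.9, 140.4 and 139 CPM in TNFR2 positive libraries. Dnajb9 was lower without overlap (log2FC = -1.36, adjusted p = 5.71e-08). The other gene named by rule here was Hsp90b1, also lower and given above.

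Of 14 regulators of the unfolded protein response 5 were higher and 7 lower (median -0.09), or 4 higher and 5 lower in the length-corrected fit (median 0.01). Ppp1r15a, the gene of GADD34, which restores translation after stress, had 162 ± 4.16 CPM in TNFR2-deficient libraries and 324 ± 8.55 in TNFR2 positive libraries (1.99-fold lower, adjusted p = 4.46e-08). Atf6, a sensor of ER stress that binds the ER stress element once cleaved, had 53.9 ± 0.849 against 103 ± 11.4 CPM (log2FC = -0.93, adjusted p = 1.06e-06; -0.60 in the length-corrected fit). Among 12 tested genes of other heat shock factors and regulators of HSF1, 5 were higher and 6 lower (median -0.21), or 4 and 4 in the length-corrected fit (median -0.03). Hsbp1, which encodes a small protein that binds HSF1 trimers, had 78.1 ± 3.47 against 45.9 ± 2.23 CPM (log2FC = 0.77, adjusted p = 1.03e-06), and Ep300, an acetyltransferase with HSF1 among its substrates, had 121 ± 8.03 against 281 ± 57.6 CPM (log2FC = -1.22, adjusted p = 3.17e-06; -0.70 in the length-corrected fit).

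Of 15 early genes that tissue handling is known to induce, 9 were lower in TNFR2-deficient libraries, 2 higher and 4 not past the threshold (median -0.80), or 12 lower and 0 higher in the length-corrected fit. Atf3, a transcription factor of the stress response, had 1.38, 1.85 and 1.58 CPM in TNFR2-deficient libraries and 19.3, 20.4 and 21.3 CPM in TNFR2 positive libraries (log2FC = -3.66, adjusted p = 6.7e-10). Klf6, another early transcription factor, had 77.7 ± 5.74 against 301 ± 14.2 CPM (log2FC = -1.95, adjusted p = 1.05e-09). Most chaperone genes of the main set were also lower, but Dnajb1 was higher (log2FC = 0.46). The further lists without these early genes had a median log2FC of 0.01. Whether the early genes varied together with the chaperones was not tested, nor was their part in the chaperone results.

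**Figure D4:**
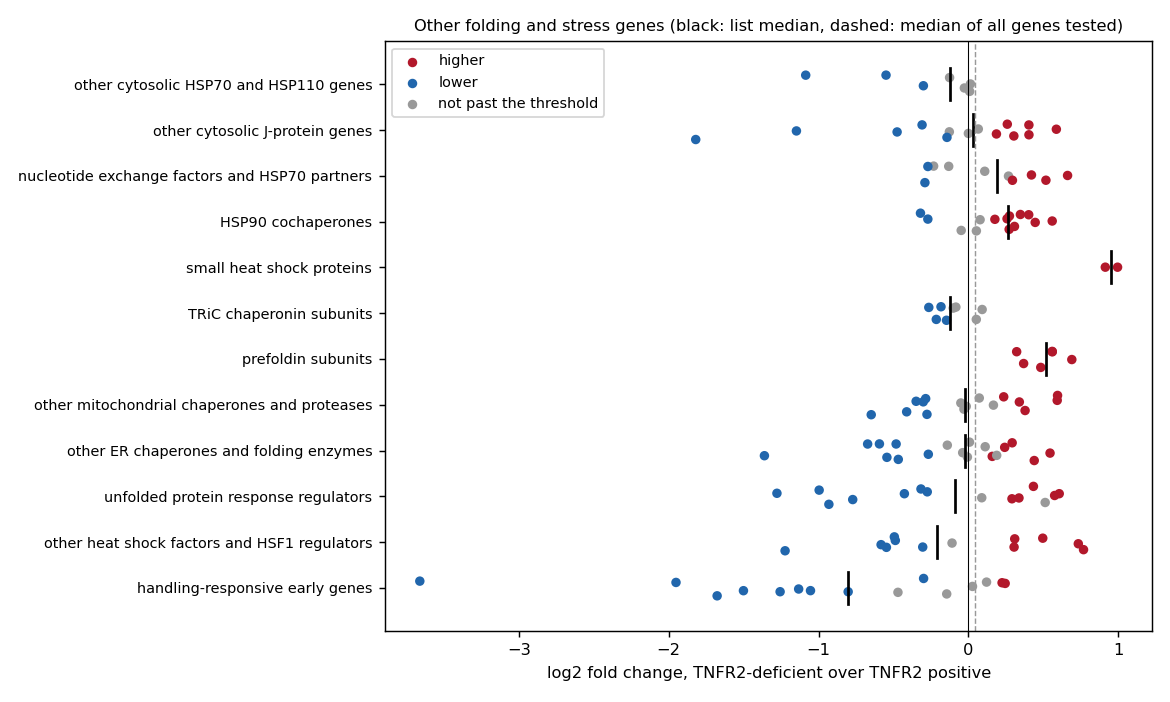
Log2 fold changes (TNFR2-deficient over TNFR2 positive) of each tested gene of the 12 further lists, one row a list, red where higher, blue where lower and grey where the test was not passed. List medians (black) run from -0.80 for the early genes to 0.95 for the pair of small heat shock genes, and most rows hold points on both sides of 0.

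The promoter letters shown above were also counted over all genes. RefSeq's GRCm38.p6 table gave a window of 250 bases before to 50 after the start for 27025 genes, among them 6 of the 10: Hspa1a, Hspa1b, Hsph1, Dnajb1, Hspd1 and Hspa5. The longer heat shock element, GAANNTTCNNGAA or TTCNNGAANNTTC (each the reverse complement of the other, N any base), was in 0.662% of all genes and in Hsph1 and Hspd1. The shorter one, GAANNTTC or TTCNNGAA (each its own reverse complement), was in 17.0% of genes and in Hspa1a, Hspa1b, Hsph1 and Hspd1; every longer match holds shorter ones. The ER stress element, searched on both strands, was in 0.137% of genes and, of the 10, in Hspa5.

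Over the 10 genes and the further lists, 5 tested genes held the longer heat shock element. Of these Hsph1, Hspd1 and Chordc1, an HSP90 cochaperone gene (log2FC = -0.32), were lower, Dnajb6, a J-protein gene (log2FC = 0.19), was higher, and Hspe1 did not pass. In the length-corrected fit Chordc1 did not pass either (log2FC = -0.09, adjusted p = 0.163). Hspd1 and Hspe1 hold the same letters, on opposite strands. Of 116 genes with a window but without the longer element, 43 were higher and 40 lower. The shorter element was in 24 tested genes, of which 6 were higher, 9 lower and 9 not past the threshold. In the length-corrected fit 8 of them were higher and 8 lower. Of 97 genes without the shorter element 38 were higher and 34 lower. The ER stress element was in 9 tested genes, of which Hspa5, Hsp90b1, Canx and Ero1b were lower, Creld2, Dnajc3 and Syvn1 were higher and 2, Calr and Pdia6, did not pass, beside 41 higher and 39 lower of 112 without it. In the length-corrected fit 6 of the 9 were lower, Calr and Pdia6 among them, and 2 higher, while Creld2 did not pass (log2FC = 0.11, adjusted p = 0.242). These are counts of letters in a fixed window, and a match is not a bound site.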

How the data were processed

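Mouse RNA-seq was done on 3 libraries per group, and the sample titles gave each library's group and number. The authors deposited raw counts per gene identifier, not normalized. Per the labels' protocols, poly(A) RNA was selected with oligo-dT beads. HISAT2 2.1.0 and the genome build GRCm39 stand in the submitters' processing notes. The counting program, its annotation and strand setting, and its treatment of multiply mapped reads were not given in the sources used, so near-identical copies and overlapping or antisense genes may share counts.

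Of 32377 identifiers 30529 matched a symbol. Counts were filtered with filterByExpr, scaled by TMM and tested with the quasi-likelihood test of edgeR 4.0.16 in R 4.3.3, with the group as the only term and Benjamini-Hochberg adjustment over 17022 genes (common biological coefficient of variation 7.62%). CPM per kb used exonic lengths of GENCODE M21. On simulated counts with the same groups (16921 genes tested) 179 of 200 changed genes were recovered and 15 unchanged ones called. Few genes were changed there, while 69.3% passed in the real comparison. The simulation thus does not show how scaling and testing behave where most genes differ. Recovery was also counted by simulated fold change, which is not reported here. The total alone does not show the power at the fold changes of the chaperone genes. Alternatives were DESeq2 1.42.0, limma-voom (limma 3.58.1), other scalings and filters, a length-corrected fit, with offsets from splines on log2 gene length with 4 degrees of freedom, the replicate number as a block, Hspa1a and Hspa1b summed, and leaving out each library. A fit without mitochondrial and globin genes was chosen after seeing the data.

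The 10 genes and all lists were chosen with earlier results of these data known. Genes outside the 10 were named by a rule. It took the 2 genes per list with the lowest adjusted p that averaged 5 CPM or more. Hspe1, Hsp90b1, Hspa9, Bag3, Hspb1 and Hsf2 were named whatever their values. It also took the 3 genes most correlated with Hspa1a plus Hspa1b and with Hsf1. Genes without a symbol, Gm and Rik genes and receptor segments were passed over in that last step. Genes named for their promoter letters, Hspb6 and Capg were chosen after their values were seen. Promoter windows and sequences are from RefSeq (GRCm38.p6).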

Additional observations from a re-analysis of the deposited data

How the results depend on the processing

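Apart from Hspa1a, the genes of the set kept their direction and their side of the threshold under every alternative fit, Hspa1b staying above an adjusted p of 0.05 with log2FC of -0.43 to -0.04. Hspa1a lost its call with DESeq2 (log2FC -0.63, adjusted p = 0.0843), upper-quartile scaling (-0.54, 0.0521), no filter on low counts (-0.56, 0.102) and Hspa1a and Hspa1b summed (-0.36, 0.0615). It also lost it with each library left out in turn (log2FC -0.65 to -0.51, edgeR adjusted p 0.0511 to 0.109). With the replicate number as a block Hspa1a had a log2FC of -0.60 (adjusted p = 0.0517), and 11856 genes passed against 11802 without the block. Same-numbered libraries correlated at 0.22, 0.29 and -0.24 in their deviations from the group means, so the numbers are not shown to pair them. The ratio of Hspa1a plus Hspa1b to Hspa8, 0.0046 on the log2 scale, ran from -0.11 to 0.13 with each library left out, changing sign without TNFR2-deficient library 3 (-0.11), TNFR2 positive library 1 (-0.05) or TNFR2 positive library 3 (-0.07). The cause of these changes was not tested. Over the alternatives 10771 to 13273 genes passed. In the length-corrected fit 1 of the other HSP70 and HSP110 genes and 1 TRiC gene were higher and 1 exchange factor gene and 1 HSP90 cochaperone gene were lower. Hspa1a, at 24 to 30 counts in TNFR2-deficient libraries and 32 to 42 in TNFR2 positive libraries, had the lowest counts of the 10 genes, so counting error is largest there.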
